A study of Mus musculus with 4 samples.

Results

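Kirrel, Kirrel2, Kirrel3, Pcdh7, Pcdh9, Pcdh10, Pcdh17, Pcdh19 and Pcdh11x encode cell-surface adhesion molecules of the kind that sort olfactory axons, and they are 9 of the 49671 gene symbols counted in the study. They were taken by name, as members of these families, and all 9 were found in each count table. The study made 4 single-cell RNA-seq libraries from the olfactory epithelium of outbred CD-1 mice, 1 library for each postnatal age: P0, P3, P7 and P21 (days after birth). The tissue was dissociated with papain and the loaded cells were sorted. The sources used here give neither the gate of the sort nor the number and sex of the animals, and the labels name no transgene or treatment. After removal of poor barcodes, 2691, 3220, 1785 and 1413 cells remained at P0, P3, P7 and P21, with 9192869, 17770838, 8650272 and 6844712 unique molecular identifiers (UMIs, each standing for 1 captured transcript) and medians of 3227, 4982, 4682 and 4409 UMIs per cell.

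Olfactory sensory neurons each choose 1 odorant receptor gene, and the axons of neurons with the same receptor gather in shared glomeruli of the olfactory bulb. Kirrel proteins are immunoglobulin-superfamily molecules related to nephrin, and Kirrel2 and Kirrel3 are known in mouse for homophilic adhesion between axons, for complementary expression among glomeruli and for dependence on neuronal activity. The delta-protocadherins are non-clustered cadherins with weak homophilic adhesion, and several of them are known to be expressed in subsets of olfactory neurons.

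Neurons were grouped by UMI gates and given no name beyond the gate. Omp cells had at least 3 UMIs of Omp, the olfactory marker protein of mature neurons, and fewer than 3 of Gap43, a growth cone protein of immature neurons; they numbered 320, 283, 330 and 816 at P0, P3, P7 and P21. Gap43 cells had the reverse, and numbered 650, 501, 394 and 115. Summed markers of mature neurons reached 20342 to 28155 CPM (the UMIs of a gene scaled to a fixed total of UMIs per group of cells) in Omp cells and 1386 to 2096 CPM in Gap43 cells, and markers of immature neurons 1126 to 1854 CPM in Omp cells and 11792 to 12688 CPM in Gap43 cells. The mature list includes Omp and the immature list Gap43, so the sums restate the gates in part. Taken singly, 9 of 9 mature markers were higher in Omp cells in all 4 libraries. Of the 9 immature markers, 8 were higher in Gap43 cells in all 4. Markers of other cell types were low in Omp cells, with summed levels of 5.78 to 19.2 CPM for sustentacular cells, 6.01 to 41.2 CPM for stroma, 2.0 to 13.7 CPM for glia and 2.29 to 5.74 CPM for leukocytes. Neurons that reached the gate of another cell type by these same markers had been left out. The low levels therefore follow in part from that rule and are no separate check of the gate. The P0 and P3 libraries shared 68 cell barcodes, and in 12 of the 12 shared barcodes where both libraries gave a leading odorant receptor it was the same receptor, while the other pairs of libraries shared 1 to 9 barcodes. Without the shared barcodes, the calls on the 9 genes in the tests between groups of cells and in the ratios of P21 over P0 were kept.

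The start regions of 3 genes are shown because they belong to 3 of the 4 genes with the highest ratios of Omp over Gap43 cells. Each runs from 250 bases before to 50 bases after the RefSeq start (GRCm38.p6), read in the direction of transcription. Capitals mark the palindromic letters CCCNNGGG, the core of the Olf/Ebf factor motif, which reads the same on both strands.
Kirrel2 (chr7:30457466-30457765, minus strand): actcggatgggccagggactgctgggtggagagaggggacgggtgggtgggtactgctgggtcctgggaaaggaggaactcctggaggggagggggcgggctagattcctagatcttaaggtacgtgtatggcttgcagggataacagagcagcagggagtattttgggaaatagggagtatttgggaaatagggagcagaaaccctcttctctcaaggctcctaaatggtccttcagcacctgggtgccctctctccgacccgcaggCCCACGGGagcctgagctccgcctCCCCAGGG
Kirrel (chr3:87174488-87174787, minus strand): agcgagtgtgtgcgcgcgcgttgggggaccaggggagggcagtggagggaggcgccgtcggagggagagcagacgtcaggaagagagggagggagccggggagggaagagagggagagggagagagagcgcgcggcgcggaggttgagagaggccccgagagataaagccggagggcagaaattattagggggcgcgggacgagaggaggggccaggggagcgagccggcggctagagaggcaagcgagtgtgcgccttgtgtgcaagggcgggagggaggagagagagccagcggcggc
Pcdh10 (chr3:45378148-45378447, plus strand): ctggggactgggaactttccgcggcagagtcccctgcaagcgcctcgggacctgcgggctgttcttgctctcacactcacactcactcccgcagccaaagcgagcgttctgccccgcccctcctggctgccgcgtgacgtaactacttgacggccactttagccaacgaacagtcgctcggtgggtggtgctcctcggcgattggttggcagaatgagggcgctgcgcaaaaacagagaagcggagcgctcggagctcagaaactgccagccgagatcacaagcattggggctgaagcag

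Kirrel2 held 2 matches, at 18 and 42 bases after the start, and Kirrel and Pcdh10 held 0. Pcdh7, Pcdh9, Pcdh17 and Pcdh19, whose start regions are not shown, also held 0. At least 1 match occurred in 13.7% of 32851 start regions of this length, and 2 or more in 2.75%. These letters are only the core: the full motif had 0 matches in Kirrel2 and occurred in 0.904% of start regions. The 300 bases of Kirrel2 carried 8 CpG dinucleotides, as against 28 in Kirrel and 24 in Pcdh10, with a median of 7 over all start regions. RefSeq start regions were matched for 7 of the 9 genes. A match of letters is a description of the sequence.

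The members lie on 6 chromosomes of the mouse genome (GRCm38), Kirrel at chr3:87078593-87174747, Pcdh10 at chr3:45378398-45435623, Pcdh7 at chr5:57717967-58133230, Kirrel2 at chr7:30447534-30457690 and Kirrel3 at chr9:34485894-35036716. Pcdh17 lies at chr14:84443563-84539002, Pcdh9 at chr14:93013410-93890679, Pcdh11x at chrX:120290259-120910619 and Pcdh19 at chrX:133582860-133688987. Overlapping annotated transcripts, which could share reads with Pcdh10, Kirrel3 and Pcdh7, had 0 UMIs for 1700027H10Rik, 0 to 3 for Kirrel3os and 0 to 5 for Gm42486 in any cell group of any library.

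Across the gates of the epithelium, Kirrel2, Kirrel3, Pcdh9 and Pcdh10 were higher in every Omp group than in any group of non-neuronal cells, whereas Pcdh7 and Pcdh17 were higher elsewhere. Kirrel was low throughout, with 5.44 to 18.8 CPM in Omp cells and up to 16.9 CPM in the glia gate, from 5 UMIs there. Pcdh7 reached 104 to 257 CPM in the basal gate, which is set on the keratins Krt5 and Krt14, against 65.8 to 75.1 CPM in Omp cells, and the ranges did not overlap. Pcdh17 reached 251 to 572 CPM in the sustentacular gate and 145 to 246 CPM in Omp cells, also without overlap. Pcdh11x and Pcdh19 were not confined to neurons either. Pcdh11x stood at 17.3 to 116 CPM in the basal gate and 73.0 to 105 CPM in Omp cells. Pcdh19 stood at 8.64 to 116 CPM in the basal gate and 41.5 to 108 CPM in Omp cells, and both pairs of ranges overlapped. In cells with both Omp and Gap43, Kirrel2 stood at 131, 94.0, 148 and 310 CPM at P0, P3, P7 and P21, between the Omp and the Gap43 cells of the same library each time. Pcdh11x in these double cells stood at 129, 137, 192 and 125 CPM, above both other gates in all 4 libraries.

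**Figure D1:**
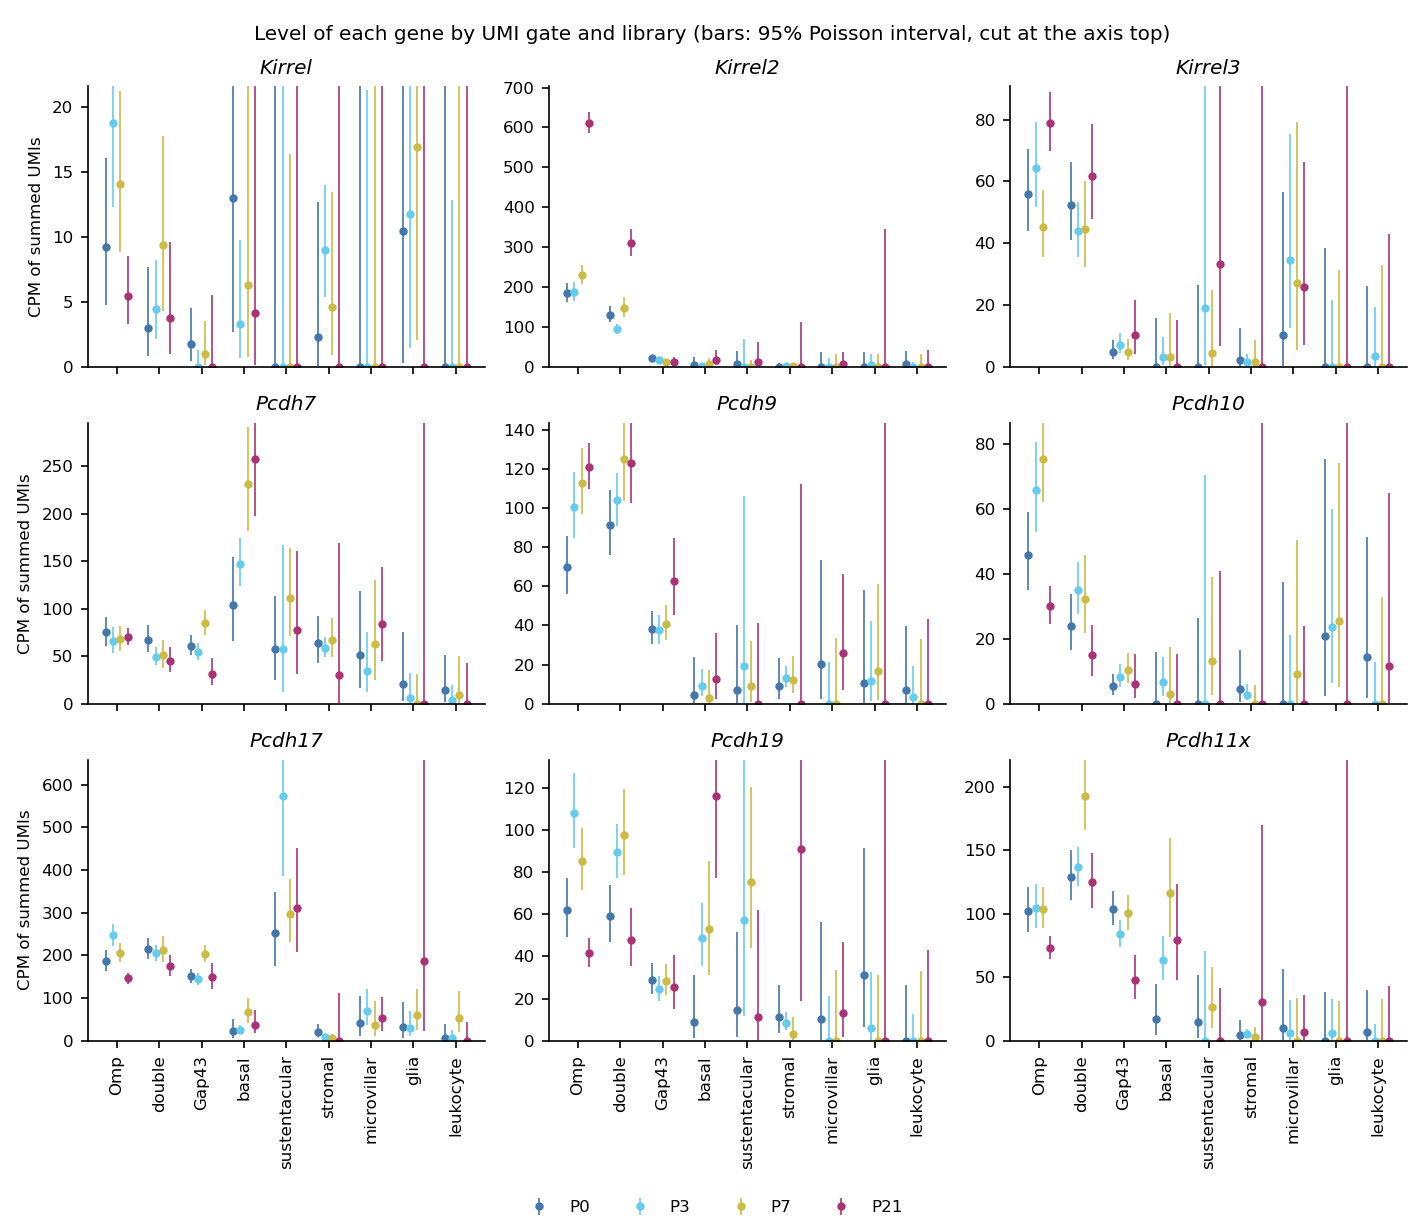
Level of each of the 9 genes (vertical axis, CPM of summed UMIs) in 9 UMI gates (horizontal axis), with 1 point per library and 95% Poisson intervals cut at the top of the axis. Kirrel2 is high in Omp cells and lower in double cells, while Pcdh7 reaches 104 to 257 CPM in the basal gate and Pcdh17 251 to 572 CPM in the sustentacular gate.

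The comparison of Omp with Gap43 cells asked which of the molecules differ between mature and immature neurons of the same library. Of the 9 genes, 8 were higher in Omp cells and 0 lower at an adjusted p under 0.05 (edgeR quasi-likelihood test with library as a block, Benjamini-Hochberg adjustment), beside 27.7% of the 11291 genes tested that were called higher and 28.5% lower. The 4 libraries served as replicates although they differ in age, and fold changes below are Omp over Gap43 cells.

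Kirrel, also called Neph1, had 9.20, 18.8, 14.0 and 5.44 CPM in Omp cells at P0, P3, P7 and P21, against 1.78, 0, 0.977 and 0 CPM in Gap43 cells, where it totalled 6 UMIs in 1660 cells. Kirrel2 had 186, 188, 231 and 612 CPM in Omp cells, against 21.3, 16.3, 11.7 and 11.9 CPM in Gap43 cells. Kirrel3 had 56.0, 64.3, 45.3 and 79.0 CPM in Omp cells, against 4.89, 7.07, 4.89 and 10.4 CPM in Gap43 cells. All 3 Kirrel genes were thus higher in every Omp group than in any Gap43 group, without overlap. The fitted log2 fold was 4.12 ± 0.72 (SE) for Kirrel (adjusted p = 0.0012, edgeR), 4.05 ± 0.26 for Kirrel2 (adjusted p = 3.15e-06, edgeR) and 3.36 ± 0.16 for Kirrel3 (adjusted p = 6.72e-07, edgeR), which correspond to folds of 17.4, 16.6 and 10.3. That of Kirrel rests on few UMIs and was 5.27 without P0 and 3.28 without P3.

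Among the protocadherins, Pcdh10, known in mouse for activity-dependent expression in these neurons, had 46.0, 65.8, 75.3 and 30.1 CPM in Omp cells, against 5.33, 8.13, 10.3 and 5.97 CPM in Gap43 cells. Pcdh19, a delta2-protocadherin whose gene underlies an X-linked epilepsy in humans, had 62.1, 108, 85.5 and 41.5 CPM in Omp cells, against 28.9, 24.4, 28.3 and 25.4 CPM in Gap43 cells. Pcdh9, a delta1-protocadherin, had 69.8, 100.5, 113 and 121 CPM in Omp cells, against 38.2, 37.5, 40.6 and 62.7 CPM in Gap43 cells. Omp and Gap43 cells did not overlap for these 3 genes either. The log2 folds were 3.06 ± 0.16 for Pcdh10 (adjusted p = 1.31e-06, edgeR), 1.67 ± 0.19 for Pcdh19 (adjusted p = 9.86e-05, edgeR) and 1.35 ± 0.12 for Pcdh9 (adjusted p = 2.53e-05, edgeR).

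The remaining 3 protocadherins had the smallest fold changes of the 9. Pcdh17, a delta2-protocadherin, had 186, 246, 205 and 145 CPM in Omp cells, against 151, 144, 204 and 149 CPM in Gap43 cells. Pcdh11x, an X-linked delta1-protocadherin, had 102, 105, 104 and 73.0 CPM in Omp cells, against 104, 83.8, 100.2 and 47.8 CPM in Gap43 cells. Pcdh7, a delta1-protocadherin, had 75.1, 65.8, 67.7 and 70.4 CPM in Omp cells, against 60.8, 54.5, 85.0 and 31.3 CPM in Gap43 cells. The values of the gates overlapped for each of these genes. The log2 fold was 0.43 ± 0.13 for Pcdh17 (adjusted p = 0.0199, edgeR), 0.34 ± 0.11 for Pcdh11x (adjusted p = 0.0318, edgeR) and 0.39 ± 0.19 for Pcdh7, which was not called (adjusted p = 0.111, edgeR). These calls depended on single libraries: Pcdh17 was not called without P0 (log2 fold 0.43) or without P3 (0.26), Pcdh11x was not called without P3 (0.30) or without P21 (0.26), and Pcdh7 was called without P7 (0.64) and with no low-count filter (0.43). With the gates applied after each cell was thinned to 2000 UMIs, Pcdh11x stood at a log2 fold of -0.02 and Pcdh17 at 0.29, neither of them called, while Kirrel (3.02), Kirrel2 (2.88), Pcdh10 (2.44) and Pcdh19 (1.07) kept their calls with smaller folds. With gates at 5 UMIs Pcdh11x stood at 0.09, not called. With the double cells counted on both sides the log2 folds were 1.84 for Kirrel, 1.60 for Kirrel2, 1.23 for Kirrel3, 1.53 for Pcdh10, 0.77 for Pcdh19 and 0.65 for Pcdh9, each still called.

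**Figure D2:**
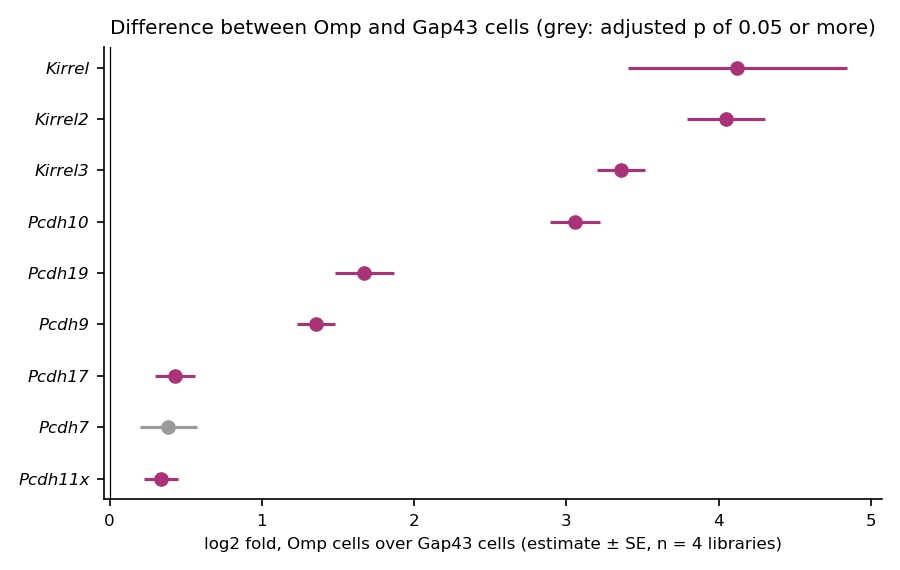
Log2 fold of each of the 9 genes in Omp over Gap43 cells (horizontal axis; edgeR estimate ± SE, 4 libraries), with Pcdh7, which was not called, in grey. Kirrel, Kirrel2, Kirrel3 and Pcdh10 lie above 3, Pcdh19 and Pcdh9 between 1 and 2, and Pcdh17, Pcdh7 and Pcdh11x under 1.

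In the same comparison the median log2 fold was 1.67 over the 9 genes and -0.03 over all genes tested. Of the other non-clustered protocadherins and partners of Kirrel proteins, 4 of 8 tested were higher in Omp cells, namely Nphs1 (nephrin, log2 fold 4.12), Pcdh8 (2.26), Tjp1 (the junction scaffold ZO-1, 1.20) and Cd2ap (an adaptor of nephrin, 0.68), and Fyn, a kinase that phosphorylates nephrin, was lower (-1.92). Of 33 other axon sorting and guidance genes tested, 13 were higher and 7 lower in Omp cells. Epha5 (4.89), an ephrin receptor, and Plxna4 (3.30), a semaphorin receptor, were among the higher ones, and Cxcr4 (-2.94), Alcam (-2.68) and Nrp1 (-0.99), a chemokine receptor, an adhesion molecule and a semaphorin receptor, among the lower ones. The list of cAMP transduction, the pathway from odorant receptor to ion channel, holds 17 genes, among them Omp, which defines the gate. Of the other 16, all were called, 15 of them higher, such as Adcy3 (4.13) and Gnal (3.82), while Gnas, an early G protein subunit, was lower (-3.67).

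Over cell groups and libraries together (28 points from 7 gates with at least 20 cells in each library), the level of Kirrel2 ran most like that of Stom (Pearson r = 0.977), Cnga4 (0.973) and Nrn1l (0.970) among 7998 genes, on a log2(CPM + 10) scale. For Kirrel3 the closest were Cfap69 (0.937), Gprc5c (0.914) and Fn3k (0.912). The points share libraries and gates, so these values are descriptions.

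Age was compared as P21 over P0 within each gate, with no replicate library of any age, so that age cannot be told apart from library and the intervals cover counting error only. In Omp cells, 2 of the 8 genes with enough UMIs were at least 1.5-fold higher at P21 with an interval excluding 1, and 1 was lower, beside 14.0% of 9755 genes higher and 8.01% lower. Kirrel2 stood at 612 CPM at P21 and 186 CPM at P0, a ratio of 3.29 (95% interval 2.88 to 3.77), and its P21 level was also above P3 (ratio 3.26) and P7 (ratio 2.65). The 3 younger libraries lay within 186 to 231 CPM. Pcdh9 stood at 121 CPM at P21 and 69.8 CPM at P0 (ratio 1.74, 1.38 to 2.20), but the P21 level was 1.21 times that of P3 and 1.07 times that of P7, neither of which met the rule. Pcdh10 stood at 30.1 CPM at P21 and 46.0 CPM at P0 (ratio 0.654, 0.472 to 0.913), and P21 was the lowest of the 4 libraries, at a ratio of 0.457 to P3 and 0.399 to P7. With the mean of per-cell CPM in place of the sum, neither Pcdh9 (ratio 1.41) nor Pcdh10 (0.734) met the rule against P0, and Pcdh10 did not with gates at 2 UMIs (0.712) or 5 UMIs (0.673).

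Pcdh19 had its highest level at P3 and its lowest at P21, with ratios of P21 of 0.383 to P3 and 0.485 to P7, which met the rule, and 0.669 (0.506 to 0.889) to P0, which did not. Pcdh17 followed the same order, with a ratio of 0.590 to P3 that met the rule. Kirrel fell to 5.44 CPM at P21 against 18.8 CPM at P3 (ratio 0.290, 0.151 to 0.544), from 19 and 26 UMIs. Kirrel3 at P21 was 1.41 times P0 (1.09 to 1.85), which did not meet the rule, and 1.74 times P7, which did. Pcdh7 did not meet the rule, with ratios of P21 between 0.938 and 1.07 to the 3 younger libraries, and Pcdh11x lay between 0.697 and 0.716, short of the rule. Against P3 and against P7, 5 of the 9 genes met the rule each time, beside 8.99% of genes higher and 8.85% lower than P3, and 7.79% higher and 8.38% lower than P7.

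Omp cells themselves differed with age in their gating genes: Omp stood at 3741, 4354, 5154 and 6626 CPM and Gap43 at 114, 103, 72.1 and 46.7 CPM at P0, P3, P7 and P21. The share of cells with a Kirrel2 UMI was therefore also read at matched Omp counts, in cells thinned to 2000 UMIs. At 10 to 14 Omp UMIs it was 26.0%, 28.9%, 27.7% and 55.2% at P0, P3, P7 and P21, and at 15 or more it was 14.3%, 25%, 22.4% and 56.1%. At 5 to 9 it was 29.5%, 31.7%, 32% and 57.3%, and below 5, where P7 and P21 had 19 and 12 cells, it was 21.1%, 24.2%, 52.6% and 58.3%. P21 was the highest library in all 4 ranges of Omp counts, and its interval lay apart from those of the 3 younger libraries at 5 to 9 and at 10 to 14. Below 5 it overlapped those of all 3 younger libraries, and at 15 or more that of P0, which rests on 7 cells.

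In Gap43 cells, 1 of 6 genes with enough UMIs was higher at P21 than at P0 and 2 were lower, beside 7.89% of 8456 genes higher and 6.26% lower. Pcdh9 stood at 62.7 CPM at P21 and 38.2 CPM at P0 (ratio 1.64, 1.11 to 2.40). Pcdh7 stood at 31.3 CPM at P21 and 60.8 CPM at P0 (ratio 0.515, 0.309 to 0.819), and Pcdh11x at 47.8 CPM at P21 and 104 CPM at P0 (ratio 0.460, 0.307 to 0.667). With gates at 5 UMIs in place of 3, 0 of these met the rule, Pcdh9 did not meet it under median-of-ratios scaling (1.48), and only 115 Gap43 cells were present at P21. Kirrel2 had 11.9 CPM at P21 and 21.3 CPM at P0, from 8 and 48 UMIs, and did not meet the rule (ratio 0.560, 0.229 to 1.19).

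**Figure D3:**
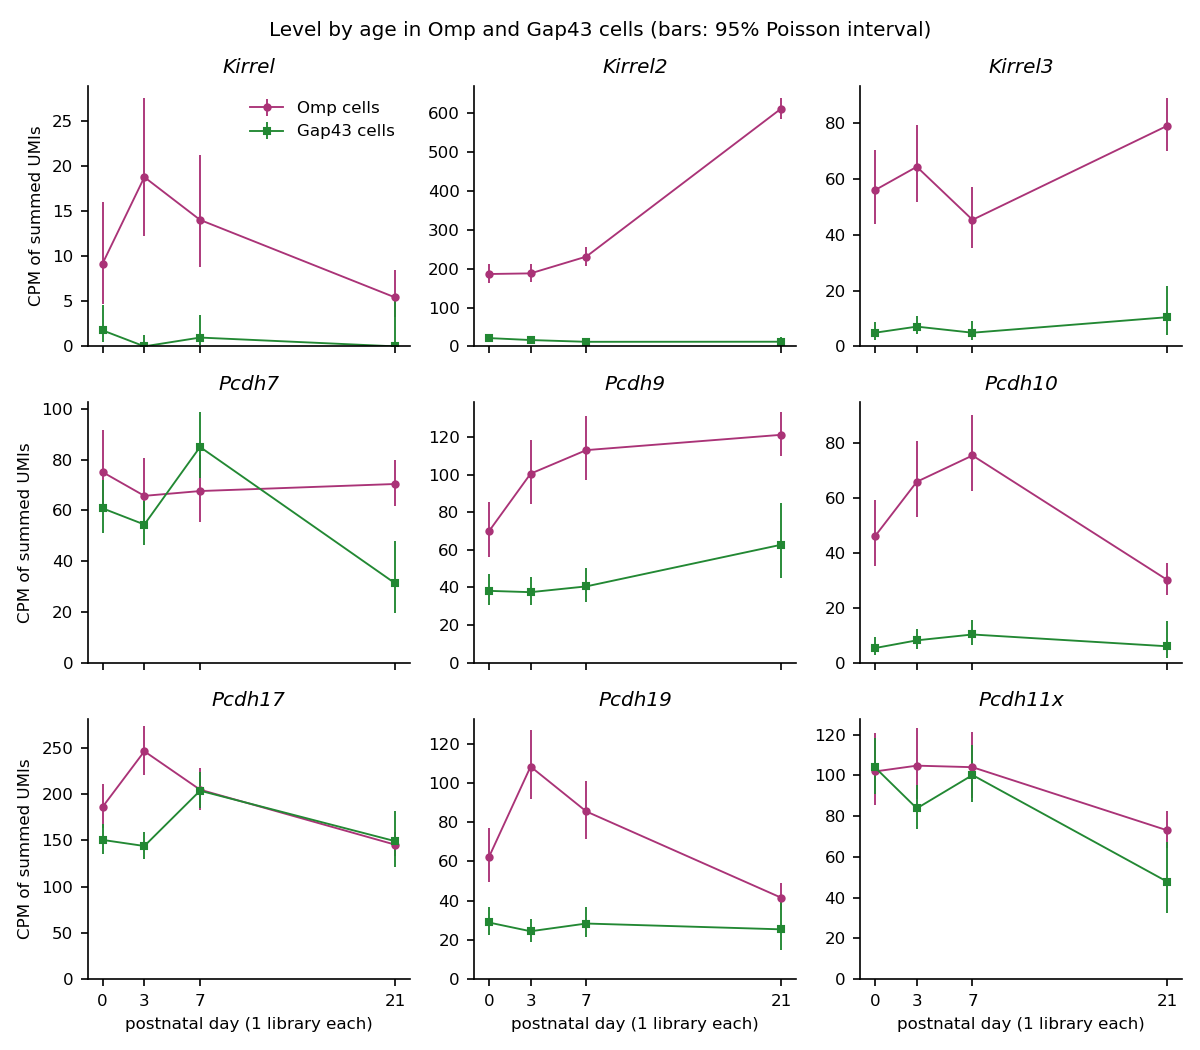
Level of each gene (vertical axis, CPM of summed UMIs with 95% Poisson intervals) against postnatal day (horizontal axis, 1 library each) in Omp cells (circles) and Gap43 cells (squares). Kirrel2 in Omp cells lies between 186 and 231 CPM up to P7 and at 612 CPM at P21, while Pcdh10, Pcdh17 and Pcdh19 in Omp cells are lowest at P21.

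Expression among single neurons was read in cells thinned to 2000 UMIs, which left 1451 Omp cells and 1570 Gap43 cells. In Omp cells a Kirrel2 UMI was present in 26.4% to 56.0% of cells over the 4 libraries, Pcdh17 in 22.6% to 31.8%, Pcdh9 in 10.4% to 19.9%, Pcdh19 in 9.08% to 19.5%, Kirrel3 in 6.86% to 14.6%, Pcdh11x in 10.3% to 13.7%, Pcdh7 in 10.7% to 12.6%, Pcdh10 in 5.65% to 14.1% and Kirrel in 1.34% to 4.29%. In leukocyte-gate cells, which should lack them, 0 of 131 cells thinned to the same depth had a UMI of Kirrel, Kirrel2, Pcdh19 or Pcdh11x, which allows a share of up to 2.29%, and 1 to 3 cells had one of each of the others, at most 2.29%. A share at 2000 UMIs misses many cells that express a gene at these levels, so the shares count detection.

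A cell carried UMIs of 1.14, 1.47, 1.46 and 1.51 of the 9 genes on average in Omp cells at P0, P3, P7 and P21, against 0.602, 0.538, 0.687 and 0.565 in Gap43 cells. Cells with 0 of the 9 made up 28.6%, 17.6%, 16.6% and 14.9% of Omp cells and 55.6%, 57.4%, 47.4% and 56.5% of Gap43 cells. Omp cells showed 52 to 79 different combinations of detected members per library.

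Pcdh11x was unevenly spread among neurons. Its variance of UMIs per cell over the mean, which would be 1 for Poisson counts, was 2.09, 2.0, 2.11 and 1.94 in Omp cells at P0, P3, P7 and P21, and 2.49, 2.45, 2.64 and 1.37 in Gap43 cells. A value of 1.5 or more was found in 1.32%, 2.05%, 1.82% and 1.48% of genes other than odorant receptors in Omp cells, and in 1.73%, 2.43%, 2.45% and 3.57% in Gap43 cells. Pcdh11x met it in all 4 Omp groups and in the P0, P3 and P7 Gap43 groups. Pcdh17 had 1.30, 1.89, 1.67 and 1.70 in Omp cells and 1.54, 1.58, 1.65 and 1.02 in Gap43 cells. Kirrel2 in Omp cells had 1.30, 1.44 and 1.43 at P0, P3 and P7 and 2.18 at P21, where 44.0% of cells had no UMI and a Poisson spread of the same mean would leave 28.3% without. Pcdh10 in Omp cells had 1.51, 1.47, 1.70 and 1.25, at or above 1.5 at P0 and P7. The other members measured stayed under 1.5 in Omp cells, from 1.16 to 1.28 for Kirrel3, 1.16 to 1.42 for Pcdh7, 1.07 to 1.37 for Pcdh9 and 0.971 to 1.36 for Pcdh19.

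Mutual exclusion was tested by splitting Omp cells of each library into those with and those without a UMI of 1 member and comparing all genes between the sides. Kirrel2 and Kirrel3 were each lower in cells with the other, and no other of the 56 ordered pairs was called (edgeR quasi-likelihood test, library as a block, Benjamini-Hochberg adjustment over all genes of a split), while 16 pairs had an unadjusted p under 0.05 and DESeq2 called 0. Of all genes tested, 1.33% were called in either direction in the split by Kirrel2, 0.754% by Kirrel3, 0.67% by Pcdh7, 0.763% by Pcdh9, 0.639% by Pcdh10, 1.03% by Pcdh17, 0.653% by Pcdh19 and 2.72% by Pcdh11x.

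Kirrel3 stood at 0, 36.8, 24.1 and 51.9 CPM in Omp cells with a Kirrel2 UMI at P0, P3, P7 and P21, against 75.8, 75.8, 43.8 and 127 CPM in Omp cells without one. It was lower beside Kirrel2 in each of the 4 libraries, although the ranges over libraries overlapped. The log2 fold was -1.38 ± 0.29 (adjusted p = 0.0204, edgeR), beside 0.706% of 6235 genes called lower in this split. In the reverse split Kirrel2 stood at 0, 120, 105 and 352 CPM in cells with a Kirrel3 UMI, against 196, 228, 221 and 679 CPM in cells without one, again lower in each library. Both splits use the same Omp cells, so the reverse result is not independent of the first. The log2 fold was -1.13 ± 0.21 (adjusted p = 0.00228, edgeR), beside 0.526% of 5706 genes called lower. Kirrel3 in the Kirrel2 split was no longer called without P7 (log2 fold -1.47) or without P21 (-1.63), nor in cells thinned to 1500 UMIs (-0.62), and Kirrel2 in the Kirrel3 split was not called without P21 (-1.65). DESeq2 called neither, with log2 folds of -1.54 and -1.34.

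In numbers of cells, a Kirrel3 UMI was found in 0%, 7.35%, 4.82% and 10.1% of Omp cells with Kirrel2 at P0, P3, P7 and P21, against 13.6%, 12.1%, 7.73% and 20.3% of those without. Over the libraries 47 cells had UMIs of both, where the product of the shares within each library gives 74.9, a ratio of 0.627. At P0 there were 0 such cells against a product of 7.13, and at P21 there were 38 against 54.8. The number of cells with both was below the product in each library, and such cells were present at P3, P7 and P21. At P3 and P7 the intervals of the shares with and without Kirrel2 overlapped. The intervals cover counting error over cells, which are not replicates, so they test no difference within a library.

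**Figure D4:**
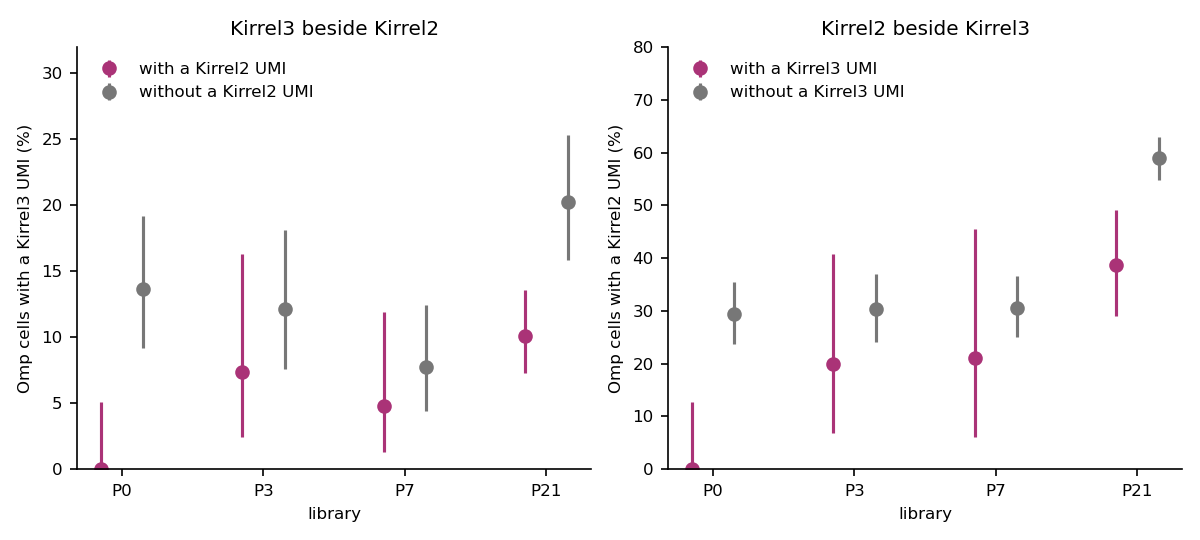
Share of Omp cells with a Kirrel3 UMI, split by the presence of a Kirrel2 UMI (left), and the share with a Kirrel2 UMI, split by Kirrel3 (right), in each library (points with exact binomial 95% intervals, cells thinned to 2000 UMIs). The share is lower in cells with the other Kirrel gene in all 4 libraries, and the intervals do not overlap at P21 in either panel.

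Of the 29 pairs of members whose product of shares reached 10 cells in Omp cells, the observed number over the product ran from 0.627 to 1.44 with a median of 0.964. The pair of Kirrel2 and Kirrel3 was the lowest. Kirrel2 also met Pcdh11x less often than the product in all 4 libraries (49 cells against 65.5), and its split gave a log2 fold of -0.75 for Pcdh11x that was not called (adjusted p = 0.123, edgeR). Kirrel2 and Pcdh10 were found together in 56 cells against a product of 46.8, and the log2 fold of 0.63 for Kirrel2 in cells with Pcdh10 was not called either (adjusted p = 0.105, edgeR). Of the 29 pairs, 6 were below the product in all 4 libraries. Besides Kirrel2 with Kirrel3 and with Pcdh11x these were Kirrel2 with Pcdh17 (142 cells against 147) and with Pcdh19 (59 against 70.0), Pcdh7 with Pcdh19 (17 against 22.1) and Pcdh10 with Pcdh17 (24 against 33.7). Pcdh9 and Pcdh17 were the one pair above the product in all 4 libraries, at 75 cells against 65.0. In Gap43 cells, 0 of 6 ordered pairs were called by edgeR and 0 by DESeq2, with 2 at an unadjusted p under 0.05 in edgeR, where 1.98% of all genes were called in the Pcdh9 split and 1.52% in the Pcdh17 split. Pcdh17 and Pcdh19 were found together in 8 Gap43 cells against a product of 19.1, below it in every library, 1 of 5 Gap43 pairs that reached a product of 10. Pcdh19 and Pcdh11x, which did not reach it, were found together in 22 cells against 8.42, above the product in 3 of the 4 libraries.

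The Kirrel splits were also read for the genes that accompany each member. In cells with Kirrel2, S100a5, a calcium-binding protein whose expression in these neurons depends on activity, stood at 22366, 21779, 26874 and 20428 CPM at P0, P3, P7 and P21, against 8402, 9394, 8353 and 8655 CPM in cells without Kirrel2. The sides did not overlap, and the log2 fold was 1.40 ± 0.06 (adjusted p = 7.18e-10, edgeR). Calb2, calretinin, stood at 394, 618, 386 and 253 CPM with Kirrel2, against 1273, 1403, 1338 and 1336 CPM without, a log2 fold of -1.90 ± 0.13 (adjusted p = 3.63e-07, edgeR). Of 8 activity-linked genes tested, Rasgrp4 (2.35), Pcp4l1 (1.45), S100a5 and Lrrc3b (1.08) were higher beside Kirrel2, and Calb2 and Cartpt (-0.29) lower, where 0.626% of genes were called higher. Rasgrp4 was not called without P21 (1.91).

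Of 21 guidance genes, Epha5 (0.77) was higher beside Kirrel2 and Efna5 (-1.21), Efna3 (-0.59) and Tenm2 (-0.70) were lower. Epha5 encodes a receptor of the ephrin-A ligands that Efna3 and Efna5 encode. Of the 17 cAMP genes, Pde1c (0.44) was higher and Gnas (-1.84) and Stoml3 (-0.22) lower, and Gnas was not called when any 1 of the 4 libraries was left out (-2.04 to -1.75) or in a second thinning draw (-0.34). By size of fold, Erbin (1.47), a scaffold protein that was not called without P21 (1.51), and Ntf3 (1.40), the neurotrophin-3 gene, were also among the highest, and Rims3 (-1.24), a protein of presynaptic release sites, was among the lowest. Ntf3 was not called without any 1 library (1.34 to 1.53) or without the shared barcodes (1.31), and Rims3 was not called without P7 (-1.13) or without P21 (-1.09). Of the 83 genes called, 37 were odorant receptor genes.

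Cells with Kirrel3 showed S100a5 at 4556, 3000, 4158 and 4995 CPM, against 12928, 14212, 14620 and 16992 CPM in cells without Kirrel3, with no overlap and a log2 fold of -1.87 ± 0.08 (adjusted p = 1.27e-16, edgeR). Pcp4l1 (-1.37), a gene of the Pcp4 family, was also lower, and Calb2 (0.95) was higher, beside 0.228% of genes called higher in this split. S100a5, Pcp4l1 and Calb2 thus had opposite signs in the Kirrel2 and Kirrel3 splits. Nqo1 (0.62) and Stoml3 (0.38) were higher too, as were Efna3 (0.53) and Sult1d1 (0.36), while Ptbp3 (-1.58) and Dlg2.1 (-1.46) were lower. Efna3 was not called without P7 (0.44) or P21 (0.58) and stood at -0.06 among cells without Nqo1. Sult1d1 was not called without P0 (0.34), P3 (0.42) or P21 (0.31), and Dlg2.1 was not called without P21 (-1.21). Ptbp3 was not called without P3 (-1.72), P7 (-1.29) or P21 (-1.44) and stood at 0.12 in cells thinned to 3000 UMIs.

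Among the protocadherin splits, cells with Pcdh10 had higher S100a5 (0.94), Pcp4l1 (0.90) and Lrrc3b (0.72), where 0.298% of 4695 genes were called higher. At P0, P7 and P21 S100a5 stood at 28660, 22897 and 34500 CPM with Pcdh10, against 10389, 12429 and 14088 CPM without. At P3 the sides were close, at 13160 and 12990 CPM for S100a5 and 920 and 820 CPM for Pcp4l1. Cells with Pcdh19 had lower S100a5 (-1.07) and Pcp4l1 (-0.88), where 0.388% of 4899 genes were called lower, and higher Calb2 (0.53), where 0.265% were called higher. Cells with Pcdh17 had lower S100a5 (-0.44), where 0.606% of 5612 genes were called lower, and higher Tenm2 (0.86), a teneurin adhesion molecule, where 0.428% were called higher. Among Gap43 cells, those with Pcdh9 had higher Cnga2 (1.21), a channel subunit, Stoml3 (1.13), Cntn4 (0.88), a contactin, and Ncam1 (0.61), where 0.926% of 3238 genes were called higher. Gap43 cells with Pcdh17 had higher Cartpt (0.74) and lower Calb2 (-0.23), where 0.758% of 4752 genes were called in each direction.

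The Pcdh11x split gave the most called genes of the 8, with 53 higher (1.03% of 5151) and 87 lower (1.69%). Its leading genes are named by the rule used for the Kirrel splits, a choice made after their values were seen, as were Cd55, Tshz1, Olig1 and Olig2. Cd36, a scavenger receptor for lipids, stood at 214, 141, 147 and 174 CPM in Omp cells with Pcdh11x at P0, P3, P7 and P21, against 20.7, 14.9, 4.12 and 15.8 CPM in those without, a log2 fold of 3.53 ± 0.40 (adjusted p = 2.24e-07, edgeR). Cd55, a complement regulator, stood at 214, 234, 485 and 304 CPM with Pcdh11x, against 22.8, 54.7, 67.9 and 43.1 CPM without. Tshz1, a zinc finger factor, stood at 375, 359, 235 and 246 CPM with Pcdh11x, against 43.6, 59.7, 49.4 and 39.8 CPM without. Both sides were apart in all 4 libraries for these 3 genes. Olig1 stood at 250.0, 266, 265 and 601 CPM with Pcdh11x, against 60.2, 79.6, 84.4 and 165 CPM without, and Olig2, like Olig1 a basic helix-loop-helix factor, at 143, 203, 162 and 210 CPM against 53.9, 29.9, 30.9 and 63.8 CPM. Cyp4v3 (3.13), Klkb1 (2.88), Mboat1 (2.69) and Zfp407 (2.68) followed Cd36 by size of fold, and Klkb1 was not called without P21 (2.13).

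On the lower side, Tuba4a, an alpha-tubulin, had 0 UMIs in the 163 cells with Pcdh11x and 116, 209, 204 and 176 CPM in those without, at least 19.0-fold lower when 3 UMIs over all libraries are set as the floor. Adam28, a metalloprotease, had 0 UMIs with Pcdh11x and 178 without, at least 7.51-fold lower. Mslnl had 53.6, 31.3, 14.7 and 58.0 CPM with Pcdh11x, against 257, 371, 323 and 628 CPM without, and Cadps2 and Nrp1 had 4 UMIs and 1 UMI with Pcdh11x, against 359 and 144 without. S100a5 was lower too, at 5321, 3844, 6500 and 5268 CPM with Pcdh11x, against 12873, 14468, 14938 and 16384 CPM without, a log2 fold of -1.56 ± 0.08. The activity-linked genes were called in both directions. Pcp4l1 (-1.89) and Lrrc3b (-1.67) were lower like S100a5, whereas Hist2h4 (0.99), Hist2h2be (0.73) and Calb2 (0.46) were higher. Of the 17 cAMP transduction genes 8 were lower and 0 higher, among them Adcy3 (-0.66), the adenylyl cyclase, Stoml3 (-0.58), Gng13 (-0.42) and Gnal (-0.32), the olfactory G protein subunit. Gnal was not called without P0 (-0.28) or P7 (-0.30), Pde1c (-1.05) not without P21 (-0.83), and Pde4a (-0.66) not without P3 (-0.58) or P7 (-0.52). Gap43 itself, the gating gene of immature neurons, stood at 107, 219, 118 and 36.2 CPM with Pcdh11x, against 110, 122, 86.4 and 39.0 CPM without, higher with Pcdh11x at P3 and P7 and not at P0 or P21. Among cells with no Gap43 UMI the split called 87 genes, with log2 folds of 3.95 for Cd36 and -1.71 for S100a5, while Adcy3 (-0.51), Gnal (-0.25) and Pde4a (-0.56) were not called there.

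The leading receptor of a cell, the odorant receptor gene with at least 3 UMIs and at least 2 times those of the next, was found in 1264 Omp cells, for 642 receptors. Cells with Pcdh11x had a leading receptor on chromosome 10 in 11 of 25 cells at P0 (44.0%), 9 of 30 at P3 (30.0%), 6 of 30 at P7 and 22 of 61 at P21 (36.1%). Cells without Pcdh11x had one in 12 of 205 (5.85%), 5 of 170 (2.94%), 5 of 203 (2.46%) and 22 of 540 (4.07%). The exact binomial intervals of the sides did not overlap in any of the 4 libraries. For Kirrel2 the corresponding shares over all libraries were 7.09% with and 7.42% without, and for Kirrel3 11.3% with and 6.73% without. These relations were looked at after the split was seen and carry no test.

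**Figure D5:**
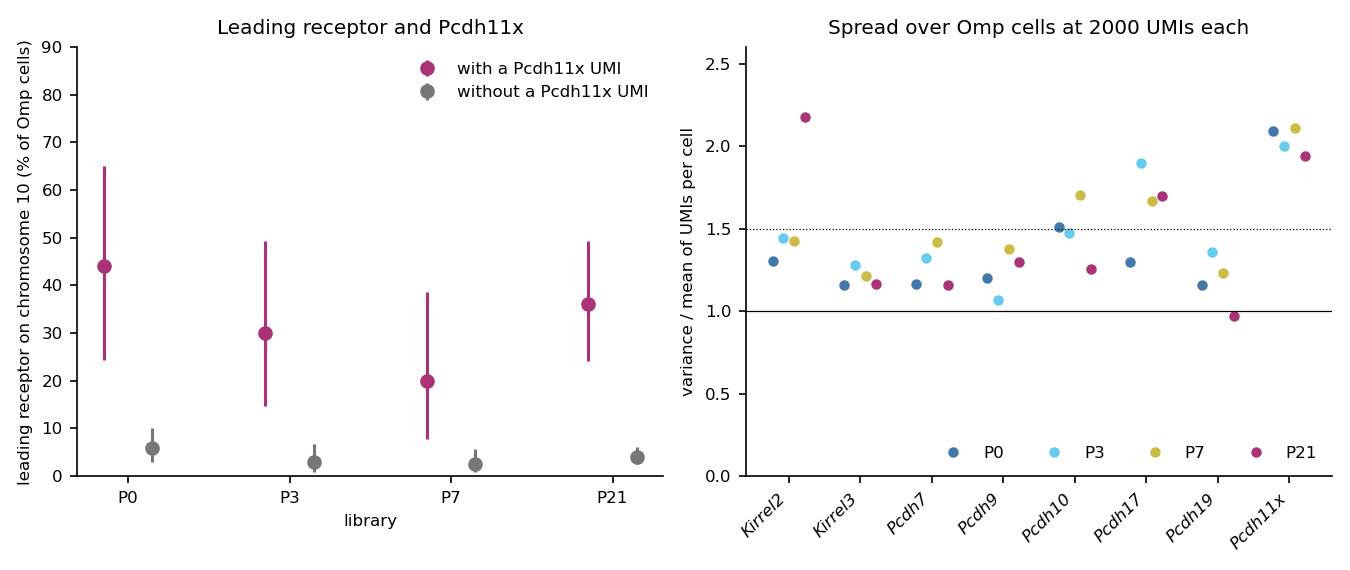
Left, the share of Omp cells whose leading odorant receptor lies on chromosome 10 (vertical axis, %, exact binomial 95% intervals) in cells with and without a Pcdh11x UMI, by library; at P21 the shares are 36.1% with and 4.07% without. Right, variance over mean of UMIs per Omp cell for 8 of the genes in each library, with a solid line at 1 (Poisson) and a dotted line at 1.5; Pcdh11x lies between 1.94 and 2.11.

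Pairs of neurons with the same leading receptor were compared for the presence of each member. At P21, where 336 same-receptor pairs of Omp cells were formed, the partner of a cell with Pcdh11x had a Pcdh11x UMI in 53.7% of cases, and the partner of a cell without it in 6.44%. The shares were 28.6% and 10.6% at P0, 66.7% and 4.48% at P3 and 33.3% and 7.84% at P7, from 38 to 57 pairs a library of which 2 or 3 had it in both cells, so that partners of cells with Pcdh11x had it more often at each age. For Pcdh7 the shares were 57.1% and 2.97% at P0, 36.4% and 10.8% at P3, 25% and 12.2% at P7 and 34.1% and 9.15% at P21, higher given a partner with Pcdh7 at each age. At each of P0, P3 and P7 only 2 pairs had Pcdh7 in both cells. For Kirrel2 the shares were 33.3% and 19.0% at P0, 10.5% and 29.8% at P3, 59.1% and 25.7% at P7 and 65.5% and 48.0% at P21. The order was opposite at P3, where 1 pair had Kirrel2 in both cells. For Kirrel3 the shares were 46.2% and 7.37% at P0, 20% and 12.1% at P3, 0% and 7.55% at P7 and 15.4% and 13.3% at P21, with the opposite order at P7. Kirrel, Pcdh9, Pcdh10, Pcdh17 and Pcdh19 all had the opposite order at P0, such as 13.3% and 14.0% for Pcdh19, where 0 or 1 pair had the gene in both cells. At P3, P7 and P21 the shares for Pcdh10 were 33.3% and 12.5%, 28.6% and 10.0%, and 16.3% and 6.58%. For Pcdh17 they were 45.5% and 22.2%, 40% and 9.09%, and 29.6% and 18.9%. These 2 genes thus had the higher share given a partner with them at P3, P7 and P21. Pcdh9 and Pcdh19 had the opposite order at P3 too, but not at P7 or P21, and Kirrel had it at each age. Outside the 9 genes, Nqo1 and S100a5 had the higher share given a partner with them at each age. At P21 the shares were 79.8% and 8.44% for Nqo1 and 87.6% and 59.0% for S100a5. Pairs of a receptor share cells, so these are descriptions.

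Only 24 receptors had at least 6 Omp cells, 199 cells in all, a limit lowered after the data were seen because the stricter one left a single receptor. Kirrel2 ran from 0 to 1272 CPM over these receptors with a median of 251 CPM, Kirrel3 from 0 to 291 CPM with 9 receptors at 0, and Pcdh11x from 0 to 994 CPM with 15 at 0. The 6 cells with Olfr1195 had 1272 CPM of Kirrel2 and 0 of Kirrel3, whereas the 11 with Olfr1176 had 44.7 CPM of Kirrel2 and 291 CPM of Kirrel3. The 14 cells with Olfr77 had 0 UMIs of Kirrel2 and 103 CPM of Kirrel3. Olfr827 had the most Pcdh11x, at 994 CPM, with a UMI in 8 of its 9 cells. Spearman's rho over the 24 receptors was -0.40 between Kirrel2 and Kirrel3 and 0.79 between Kirrel2 and S100a5, with receptors drawn from mixed ages.

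Position in the epithelium was read through Nqo1, an enzyme of dorsal-zone neurons, by comparing Omp cells with and without an Nqo1 UMI. Kirrel2 was lower and Kirrel3 higher in Nqo1 cells, and the other 6 genes tested were not called, where 1.84% of 5162 genes were called higher and 1.61% lower. Kirrel2 stood at 139, 141, 175 and 472 CPM in Nqo1 cells at P0, P3, P7 and P21, against 238, 299, 254 and 727 CPM in cells without Nqo1, lower in each library. Kirrel3 stood at 66.3, 74.4, 59.4 and 119 CPM in Nqo1 cells, against 38.8, 53.6, 14.9 and 64.4 CPM in cells without Nqo1, higher in each library although the ranges overlapped. The log2 fold was -0.65 ± 0.10 for Kirrel2 (adjusted p = 0.000109, edgeR) and 0.94 ± 0.22 for Kirrel3 (adjusted p = 0.0106, edgeR). Kirrel3 was not called without P7 (0.80) or without P21 (0.95). Pcdh9 came next with 0.60 ± 0.18 (adjusted p = 0.0744, edgeR), and the other 5 had log2 folds between -0.24 and 0.41. Kirrel2 in the Kirrel3 split was of similar size among cells without Nqo1 (-1.16), where it was not called, and P21 was the highest library for Kirrel2 on both sides of the Nqo1 split.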

How the data were processed

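Single-cell libraries were prepared with the Chromium 3' kit, version 2, per the labels' protocols. Per the submitters' processing notes the tools were Cell Ranger 2.1.1 and Seurat, with the genome mm10. The authors deposited 1 table of raw UMI counts per library. Of 9126 barcodes, 9109 with at least 500 genes, at most 10% mitochondrial and at most 10% haemoglobin UMIs were kept. Scrublet marked 27, 33, 8 and 1 cells, too few to be working, and none was removed; an alternative removed the 58, 83, 25 and 16 highest scores. Cells meeting gates of 2 kinds (106) were left out. UMIs were summed per library and side, and tested with edgeR 4.0.16 (quasi-likelihood, filterByExpr, TMM scaling, Benjamini-Hochberg over all genes, threshold 0.05). Both sides come from the same library, so library was the block. Splits and shares used cells thinned to 2000 UMIs, and splits needed 10 cells per side in every library. Age ratios have exact conditional binomial intervals and needed 20 UMIs in either library. Intervals cover counting error only. The p-values measure how the difference between sides varies over the 4 libraries, with 1 library per age, and not the spread between animals of an age. Levels are UMIs of 3' ends and are not ranked between genes. The fits were tested on simulated data. The Kirrel2 split recovered 32.8% of 1.5-fold and 72.1% of 2-fold changes, and the Kirrel3 split 17.2% and 30.6%. A pair of members that was not called can thus hold a change of such size. Alternatives changed normalization, filter, block, gates, thinning and libraries; DESeq2 1.42.0 was also run. The members, gene lists and named genes (the 9 members, called list genes, and up to 5 genes per direction of at least 20 CPM with the largest folds) were chosen with earlier results of these data known.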

Additional observations from a re-analysis of the deposited data

Results flagged for a closer look

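The P0 and P3 libraries shared 68 cell barcodes, and the other pairs of libraries 1 to 9. Where both cells of a shared P0 and P3 barcode had a leading odorant receptor, it was the same in 12 of 12, and 40 of the 68 fell in the same gate in both libraries. Over all pairs of libraries, cells with a shared barcode numbered 30 in the Omp gate and 33 in the Gap43 gate. Without them, 89 of 92 results were kept by the rules given in the next section. The calls of Ntf3 and Gnas in the Kirrel2 split and of Nqo1 in the Pcdh11x split were lost. Whether reads of one library were assigned to the other was not tested.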

How the results depend on the processing

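At 2000 UMIs a cell, cells that express a member without a UMI fall on the wrong side of a split, and 1 library per age leaves age untested. Of 1303 recomputed values, 1074 were counted as kept, and for the others the cause was not tested. The fold of a single gene was kept with the same direction and side of the threshold, and a count when within 1.5-fold. Age ratios and co-detection were kept inside the counting interval of the main value, and variance over mean within its standard deviation over libraries. A kept age ratio could thus still fail the rule for a call. Without the replicate block by library, which is the pairing of both sides, 5 of the 9 genes were called higher in Omp cells instead of 8, 0 ordered pairs were called instead of 2, and the splits by Kirrel2, Kirrel3 and Pcdh11x called 7, 1 and 23 genes instead of 83, 43 and 140. Kirrel3 in the Kirrel2 split (-1.18), Kirrel2 in the Kirrel3 split (-0.84) and Kirrel2 (-0.70) and Kirrel3 (0.83) in Nqo1 cells were not called without it, and 13 genes were called between Nqo1 sides instead of 178. With DESeq2 Kirrel3 in the Kirrel2 split (-1.54), Kirrel2 in the Kirrel3 split (-1.34) and Kirrel3 in Nqo1 cells (0.96) were not called, 0 ordered pairs were, and the 3 splits called 35, 7 and 49 genes and the Nqo1 comparison 43. With no low-count filter they called 328, 127 and 316 genes, 6 ordered pairs and 491 genes by Nqo1, and with no thinning 250, 190 and 513 genes, 13 ordered pairs and 379 genes by Nqo1, with 1 pair in Gap43 cells. Thinning to 3000 UMIs gave 7 ordered pairs and 77 genes in the Kirrel3 split, and thinning to 1500 gave -0.62 for Kirrel3 in the Kirrel2 split. Among cells without Nqo1 the 3 splits called 34, 15 and 70 genes, 0 ordered pairs were called and Kirrel2 in the Kirrel3 split stood at -1.16, and among cells with Gap43 at 0 the Kirrel3 and Pcdh11x splits called 28 and 87 genes. Signs turned for Pcdh11x in Omp over Gap43 cells with gates set after thinning (-0.018), for Efna3 in the Kirrel3 split among cells without Nqo1 (-0.056) and Ptbp3 there at 3000 UMIs (0.12), and in the Nqo1 comparison, all without a call, for Pcdh10 with no thinning (-0.18), Pcdh11x with no thinning (-0.28), in a second draw (-0.12) and without P0 (-0.15; 0.23 without P3), and Pcdh7 without P7 (0.059; -0.41 without P0). By age, Kirrel2 was 2.65 times P7, 5 members met the rule in Omp cells against P3 and 5 against P7 instead of 3, and in Gap43 cells 0 met it with gates at 5 UMIs and 1 with the mean of per-cell CPM instead of 3; median-of-ratios scaling shifted all genes by 0.15 (log2) in Gap43 cells. The variance over mean of Pcdh11x was 1.65 and 2.06 in Omp cells at P21 at 1500 and 3000 UMIs, and 1.64 in Gap43 cells at P3 at 1500. Leaving out 1 library gave 6 to 9 members higher in Omp cells and 5297 to 6011 genes called, -1.63 to -1.19 for Kirrel3 in the Kirrel2 split, -1.65 to -0.97 for Kirrel2 in the Kirrel3 split, 46 to 75, 17 to 45 and 97 to 126 genes in the 3 splits, 0 to 3 ordered pairs in Omp and 0 to 1 in Gap43 cells, -0.77 to -0.60 for Kirrel2 and 0.80 to 1.02 for Kirrel3 in Nqo1 cells, and 105 to 132 genes by Nqo1; the Kirrel2 split fell to 46 without P7 and 47 without P21, and the Kirrel3 split to 21 without P3 and 17 without P21.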
